A study of Mus musculus with 9 samples.

Results

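The genes described here are 6 genes of the melanoblast and glial branches of the neural crest: Kit, Kitl, Mitf, Dct, Tyrp1 and Fabp7. They were taken by gene name from a deposited table of 33495 genes, and each name matched 1 row. Melanoblasts are the migrating precursors of pigment cells, and they arise from crest cells that express SOX10 and PAX3. These factors switch on MITF, the basic helix-loop-helix leucine zipper factor that drives the pigment genes, while the receptor tyrosine kinase KIT and its ligand KITL support the survival and migration of the cells. The glial branch, which gives satellite glia and Schwann cell precursors, expresses the brain-type fatty acid binding protein FABP7, a protein that radial glia of the neural tube also make. Both branches carry the endothelin receptor EDNRB, which binds endothelin-1 (ET-1) as well as endothelin-3.

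Sorted neural crest cells came from explants of C57BL/6 mouse embryos at E9.5, 9 samples in 3 groups of 3: wild type given phosphate-buffered saline (PBS), wild type given ET-1 at 10 µM, and embryos lacking the transcription factor gene Mef2c conditionally in the neural crest, likewise given ET-1 at 10 µM. Explants lacked the head above the first pharyngeal arch and the tail, recovered for 1 h and were then cultured with ET-1 or PBS for 12 to 15 h. The crest cells of all groups carried a genetic label. The sources used here do not give the Cre driver, the kind of label or how many embryos made up a sample, so the spread behind a p-value may be technical. A mutant given PBS was not analysed here.

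The table held 1 value per group, in FPKM (fragments per kilobase of transcript, scaled to library depth), so no value below has a replicate error, and the spread between samples of a group cannot be given. Pooled depth recovered from the values was 21507320 reads for the PBS group, 19801230 for wild type given ET-1 and 46930102 for the mutant, 2.37 times that of its wild-type control. Intervals in the text are 95% exact intervals from the smallest read numbers that give the deposited FPKM, and they cover counting error only. Where 3 values are listed, their order is wild type with PBS, wild type given ET-1, and mutant given ET-1. Calls rest on p-values taken from the authors' deposited table and adjusted here by the Benjamini-Hochberg method over all genes with at least 1 FPKM in either group. Crest markers were well expressed: Sox10 stood at 35.7, 61.0 and 70.9 FPKM and Foxd3 at 14.5, 15.3 and 14.0 FPKM in the PBS, ET-1 and mutant groups. Mef2c itself stood at 7.71, 25.2 and 10.1 FPKM.

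The promoters of 4 members are shown because they hold, or lack, the motifs tied to this lineage. The windows are 300 bases long, from 250 before to 50 after a RefSeq transcription start, on GRCm38.p6, read on the strand of the gene. This build differs from the mm9 build of the deposited gene positions given further on. Capitals mark CATGTG, the core of the M-box bound by MITF; TGACGTCA, the cAMP response element; and ACAAAG, a sequence bound by SOX factors; each was searched on both strands, so that CACATG and CTTTGT are marked too.
Kit, chr5:75574737-75575036, plus strand: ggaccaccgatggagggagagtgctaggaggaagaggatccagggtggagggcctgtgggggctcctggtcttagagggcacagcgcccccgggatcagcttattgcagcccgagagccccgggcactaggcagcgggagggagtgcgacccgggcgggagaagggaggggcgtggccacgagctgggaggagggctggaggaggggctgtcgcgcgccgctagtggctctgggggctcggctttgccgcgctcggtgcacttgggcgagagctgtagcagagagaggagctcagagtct
Mitf, window 3, chr6:97991533-97991832, plus strand: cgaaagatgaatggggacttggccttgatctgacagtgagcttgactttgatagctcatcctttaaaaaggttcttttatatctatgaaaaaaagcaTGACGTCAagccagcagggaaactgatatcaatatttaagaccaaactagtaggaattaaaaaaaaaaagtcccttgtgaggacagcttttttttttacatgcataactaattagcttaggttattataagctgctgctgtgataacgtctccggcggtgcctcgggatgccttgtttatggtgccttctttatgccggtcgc
Dct, chr14:118052197-118052496, minus strand: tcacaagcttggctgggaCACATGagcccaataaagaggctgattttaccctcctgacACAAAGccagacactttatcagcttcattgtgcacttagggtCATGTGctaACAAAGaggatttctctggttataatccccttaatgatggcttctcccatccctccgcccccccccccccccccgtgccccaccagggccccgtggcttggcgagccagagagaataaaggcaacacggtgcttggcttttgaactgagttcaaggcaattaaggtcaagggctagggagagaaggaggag
Tyrp1, chr4:80833963-80834262, plus strand: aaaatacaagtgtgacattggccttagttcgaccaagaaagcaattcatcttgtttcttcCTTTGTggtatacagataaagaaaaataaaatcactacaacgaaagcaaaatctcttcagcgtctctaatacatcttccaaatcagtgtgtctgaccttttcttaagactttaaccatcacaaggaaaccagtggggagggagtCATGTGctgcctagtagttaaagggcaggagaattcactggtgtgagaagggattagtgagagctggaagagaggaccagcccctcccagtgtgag
CATGTG lay in the windows of Dct and Tyrp1, beginning 232 and 150 bases before the start in Dct and 46 bases before it in Tyrp1, and 14.2% of all 32851 windows held it. The pair of genes thus shared the letters of the box that MITF is known to bind in pigment genes. ACAAAG lay in the same 2 windows, with 18.7% of all windows holding it, and did not overlap CATGTG. TGACGTCA lay in 1 of the 3 Mitf windows, 153 bases before the start, and in 1.79% of all windows. Kit, with 69.0% G and C, held none of these, and none of the 9 windows of the 6 members held the MEF2 motif (3.19% of all windows) or CACGTG (7.15%). A match is a description of letters, and a missing match says nothing of binding elsewhere.

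Kit, the receptor for KIT ligand, was the only member that passed the test, and it was lower in the mutant. The gene (ENSMUSG00000005672) lies on chromosome 5 at 75970941 to 76052747 in mm9. Kit stood at 12.9 FPKM in wild type with PBS, at 15.2 FPKM after ET-1 and at 9.51 FPKM in the mutant. The mutant value was thus the lowest of the 3 and lay below both wild-type values. Against wild type given ET-1 the mutant ratio was 0.626 (interval 0.589 to 0.666; adjusted p = 0.000587 from the authors' deposited table). Over all 15459 genes tested in this comparison, 4.94% were called, 3.75% lower and 1.18% higher, and 1 of the 4 members tested was called. Among protein-coding genes alone, to which Kit belongs, the shares were 1.03% lower and 0.7% higher of 11855 tested, and the adjusted p of Kit was 0.00184 from the authors' deposited table. The log2 ratio of FPKM + 1 was -0.62, at the 5.96 percentile of the genes tested, and the median of those genes was 0.05. The values rested on at least 1623, 1753 and 2602 pooled reads in the PBS, ET-1 and mutant groups.

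With ET-1 in wild type, Kit did not pass the test. Its ratio to PBS was 1.17 (interval 1.10 to 1.26; adjusted p = 1 from the authors' deposited table). None of the 4 members tested passed by these adjusted p-values, and 1, Mitf, had an unadjusted p under 0.05. Among all 15395 genes tested, 0.533% were called, 0.39% higher and 0.143% lower. Among 11758 protein-coding genes alone, the shares were 0.468% higher and 0.0936% lower. The mutant with ET-1 held 0.735 of the PBS wild-type level (interval 0.690 to 0.782), a ratio for which the table gave no p-value and in which genotype and treatment differ together. Lower Kit in a sorted pool can reflect fewer cells with Kit or less Kit RNA per cell, and these cannot be told apart here.

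Kit is also expressed by blood progenitors, mast cells and primordial germ cells, so their markers are given beside it. Of 13 haematopoietic and mast cell markers, 5 had FPKM values in all groups, and their sum was 3.36, 3.51 and 3.29 FPKM in the PBS, ET-1 and mutant groups. Gata1, Cpa3, Mcpt4 and Cma1 were listed at 0 in every group. Tal1 was listed at 12, 0 and 0, Ptprc at 3, 0 and 0, Sfpi1 at 1, 3 and 0 and Tpsb2 at 0, 1 and 3. These whole numbers look like reads and were not used as FPKM. Lmo2, a cofactor of blood progenitors, stood at 1.10, 1.61 and 0.946 FPKM and did not pass the test, and Myb, another progenitor gene, stood at 1.61, 1.24 and 1.70 FPKM. Of 9 germ cell markers, 6 had FPKM values, with a sum of 7.51, 7.33 and 8.08 FPKM, and Dppa3 was listed at 0 in every group. Sox17 was listed at 1, 0 and 0 and Dazl at 0, 1 and 0, whole numbers of the same kind. Single germ cell markers differed in direction. Ddx4, the germ cell RNA helicase, stood at 0.443, 0.730 and 0.113 FPKM, with a mutant ratio of 0.154 (interval 0.0794 to 0.285; unadjusted p = 0.00669 in the authors' deposited table), and was below the minimum for testing. Nanos3, which primordial germ cells need, stood at 1.46, 1.04 and 0.379 FPKM, and Tcfap2c, which crest and surface ectoderm also express, at 3.06, 3.53 and 4.98 FPKM, and neither passed. Ddx4, Nanos3 and Lmo2 thus had mutant values below wild type with ET-1, as Kit did, and Tcfap2c and Myb had mutant values above it. Of the other markers with FPKM values, Pou5f1, Dnd1, Prdm1 and Gata2 were also above wild type with ET-1. Cd34 and Runx1 were below it. Levels of these markers do not give how much Kit such cells hold. The part of blood and germ cells in the Kit values was not tested.

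**Figure D1:**
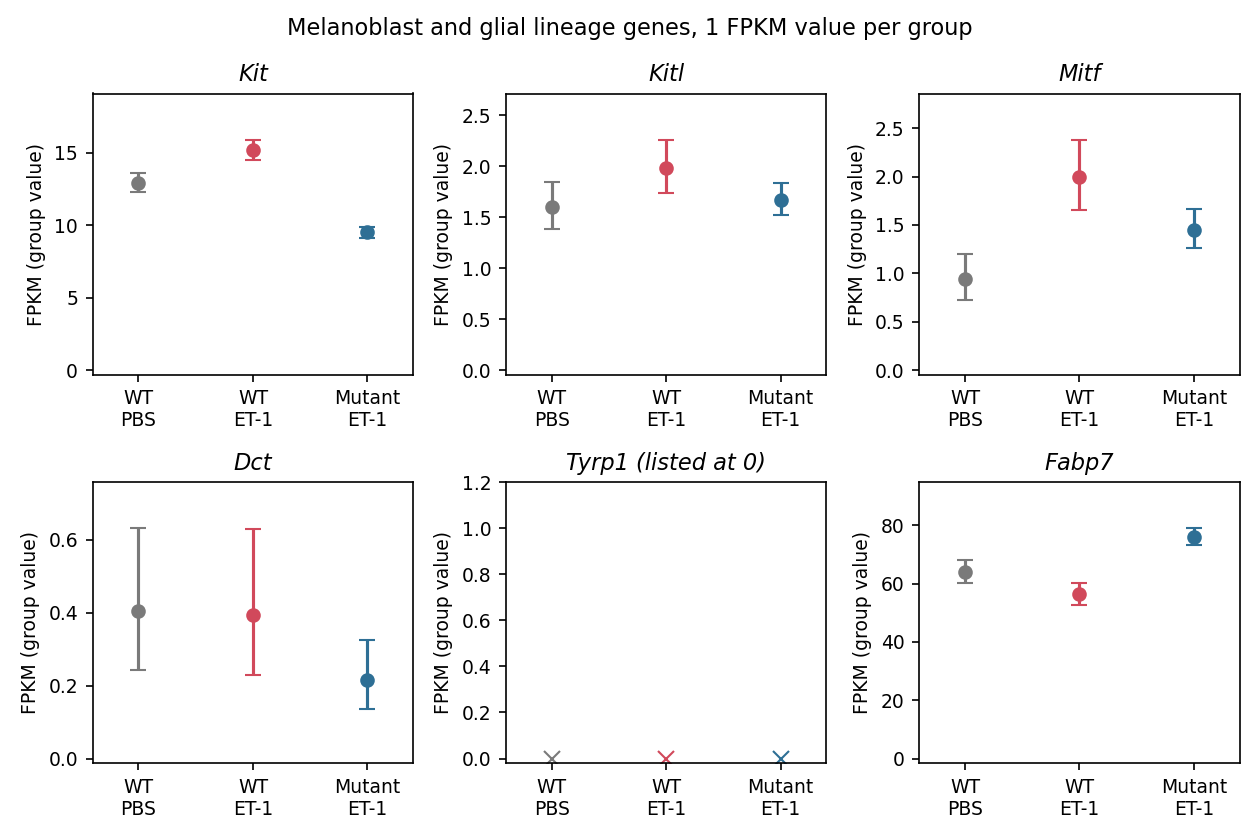
FPKM (vertical axes, from 0) of the 6 members in each group (horizontal axes), 1 point per group, with 95% counting intervals that do not cover the spread between samples. Kit is lowest in the mutant at 9.51 FPKM, Mitf highest with ET-1 at 2.00 FPKM, Fabp7 highest in the mutant at 76.1 FPKM, and Tyrp1 is listed at 0 throughout (crosses).

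Kitl, which encodes the secreted or membrane-bound ligand of KIT, was a low-level transcript in these cells. It (ENSMUSG00000019966) lies on chromosome 10 at 99478264 to 99563047 in mm9. Kitl stood at 1.60, 1.98 and 1.67 FPKM in the PBS, ET-1 and mutant groups, so the 3 values spanned a narrow range. In melanoblast biology the ligand is known mainly as a product of the surrounding tissue, while the receptor is on the migrating cell. The receptor was at 8.08 times the level of the ligand with PBS and at 5.69 times in the mutant, on the FPKM scale. Kitl did not pass the test in either comparison. The ratio of ET-1 to PBS was 1.24 (interval 1.02 to 1.51; adjusted p = 1) and that of mutant to wild type 0.842 (interval 0.716 to 0.992; adjusted p = 0.891), both from the authors' deposited table.

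Signalling genes downstream of KIT were broadly expressed, and 2 genes passed a test. All 30 genes of the list had FPKM values, among the most abundant Nras (83.6 FPKM with PBS), Mapk3 (32.0 FPKM) and Cbl (29.2 FPKM), and 28 were tested. Gab1, an adaptor that links receptor tyrosine kinases to phosphatidylinositol 3-kinase and SHP2, rose with ET-1 from 18.4 to 31.0 FPKM and stood at 17.9 FPKM in the mutant. Its mutant level was 0.577 of wild type (interval 0.550 to 0.605). From the authors' deposited table, the adjusted p was 1.36e-06 in the mutant and 0.000861 with ET-1. Pik3r1, the regulatory subunit of that kinase, was higher in the mutant, at 8.07 against 4.85 FPKM (adjusted p = 0.0148, from the authors' deposited table). In all, 1 gene rose and 0 fell with ET-1, beside 0.39% and 0.143% of all genes tested, and 1 was higher and 1 lower in the mutant, beside 1.18% and 3.75%. Most listed genes are protein-coding. With p-values adjusted over that class only, 0.468% of it rose and 0.0936% fell with ET-1. In the mutant 0.7% of it was higher and 1.03% lower. Background shares of both kinds hold for every list below, and all lists were drawn up with results of these data known. The list's median log2 ratio was 0.08 with ET-1 and 0.06 in the mutant, beside 0.01 and 0.05 over all genes tested.

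Among the class III receptor tyrosine kinases and their ligands, Kit was the most abundant in each group. Of 13 listed genes 10 had FPKM values, among them Pdgfra, the platelet-derived growth factor receptor of crest mesenchyme, at 4.22, 3.84 and 4.21 FPKM, and Csf1r, the macrophage receptor, at 0.523, 0.413 and 0.834 FPKM. None of 7 tested passed with ET-1 by adjusted p-values from the authors' deposited table, and 0 had an unadjusted p under 0.05. In the mutant Kit was the 1 gene called of 8 tested.

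Mitf, the master regulator of the melanocyte lineage, had the largest ET-1 ratio of the members and did not pass the test. The gene (ENSMUSG00000035158) lies on chromosome 6 at 97757052 to 97971343 in mm9 and has several promoters, which a value over the whole gene model cannot separate. Mitf stood at 0.941 FPKM without ET-1, at 2.00 FPKM after it and at 1.45 FPKM in the mutant, so the PBS value was the lowest and the ET-1 wild-type value the highest. These rested on at least 63, 123 and 212 pooled reads. The ratio of ET-1 to PBS was 2.12 (interval 1.55 to 2.92; unadjusted p = 0.00753 in the authors' deposited table, adjusted p = 0.490). Its log2 ratio of 0.63 lay at the 97.6 percentile of the genes tested. The ratio of mutant to wild type was 0.727 (interval 0.580 to 0.916; adjusted p = 0.614 from the authors' deposited table), and the mutant value was 1.54 times the PBS value (interval 1.16 to 2.08).

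The authors' deposited table of induced genes, which held 406 genes with unadjusted p-values up to 0.05, listed Mitf alone of the 6 members. It gave Mitf a normalized induction fold of 2.11, marked a MEF2 binding motif as present and marked it as not dependent on Mef2c. The motif mark was carried by 338 of the 406 genes and the dependence mark by 73.

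The relatives of Mitf in the MiT/TFE family were also low. Tcfe3 (current symbol Tfe3) stood at 3.19, 3.74 and 3.65 FPKM and Tcfeb (Tfeb) at 0.812, 0.920 and 0.687 FPKM in the PBS, ET-1 and mutant groups, and Tcfec (Tfec) was listed at 0 in every group. These factors bind the same E-box letters as MITF and are best known as regulators of lysosome genes. Neither Mitf nor Tcfe3, the 2 tested, passed in either comparison. With ET-1, Mitf was the 1 with an unadjusted p under 0.05 in the authors' deposited table, and in the mutant 0 had one.

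Dct, the dopachrome tautomerase of melanin synthesis and an early melanoblast marker, was near the limit of detection. The gene (ENSMUSG00000022129) lies on chromosome 14 at 118412029 to 118451407 in mm9. Dct stood at 0.404, 0.393 and 0.215 FPKM in the PBS, ET-1 and mutant groups, on at least 19, 17 and 22 pooled reads. It was below 1 FPKM in every group and was therefore not tested. The ratio of mutant to wild type with ET-1 was 0.546 with an interval of 0.277 to 1.10, which includes equal levels, and the unadjusted p in the authors' deposited table was 0.466. The ratio of ET-1 to PBS was 0.972 (interval 0.475 to 1.97). Of its 50-base words, 1.42% also occurred in other transcripts, while for the other 5 members this share was 0%.

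Tyrp1, the tyrosinase-related melanosome enzyme that acts later in pigment cell maturation, was listed at 0 in all 3 groups. The gene (ENSMUSG00000005994) lies on chromosome 4 at 80480027 to 80497623 in mm9. No fold can be given for it. Tyr, which encodes the rate-limiting enzyme of melanin synthesis, and Gpr143, a melanosome receptor, were likewise listed at 0 throughout, and Si (current symbol Pmel), the melanosome fibril protein, stood at 0.392, 0.175 and 0.666 FPKM. The eye is another source of Dct and Tyrp1, in its pigmented epithelium. Of 9 eye field and pigmented retina markers, 5 were listed at 0 in every group (Rax, Six3, Otx2, Rpe65 and Tyr) and Si alone had FPKM values in all 3. In the mutant, Rlbp1, a retinoid carrier of the pigmented epithelium, stood at 0.462 FPKM (unadjusted p = 0.0773 in the authors' deposited table) and Six6, an eye field factor, at 0.117 FPKM, with no FPKM value in wild type to set beside them.

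The wider list of 29 pigment and melanosome genes was detected in part, with the trafficking genes Ap3b1, Myo5a and Dtnbp1 among its most abundant. Slc24a5, also of this list, stood at 3.73, 3.44 and 4.64 FPKM in the PBS, ET-1 and mutant groups. It was above Mitf in each group and did not pass either test. FPKM values were present for 21, led by Gsta4 (45.8 FPKM with PBS), Ap3b1 (30.8 FPKM), Myo5a (19.1 FPKM) and Dtnbp1 (16.5 FPKM), and 16 were tested with ET-1. Slc7a11, the cystine transporter mutated in subtle gray mice, rose with ET-1 from 7.99 to 12.7 FPKM (adjusted p = 0.00876 from the authors' deposited table), and 0 fell. In the mutant 0 of 15 passed by the same adjusted p-values, and 1 had an unadjusted p under 0.05. The median log2 ratio for ET-1 was 0.01, which turned to -0.0037 after centring on all genes and -0.0041 without the filter on low values, and 0.12 in the mutant.

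Of 26 regulators of the melanocyte lineage, 25 had FPKM values and 22 were tested. With ET-1, 5 rose (Sox10, Ets1, Erbb3, Zeb2 and Tcfap2b) and 1 fell (Adamts20, from 10.3 to 5.96 FPKM), a share to read against 0.39% and 0.143% of all genes, and with the limit that the list was drawn up with these results known. Zeb2, a zinc finger factor needed for melanocyte differentiation, rose from 20.9 to 30.2 FPKM, or 1.44-fold (interval 1.40 to 1.49; adjusted p = 0.0176 from the authors' deposited table). Adamts20 encodes the metalloprotease lost in belted mice, which have a white belt of unpigmented skin. The median log2 ratio was 0.35, beside 0.01 over all genes tested. In the mutant, Kit and Ets1 were lower and Tcfap2b was higher. Ets1 stood at 31.7 FPKM in ET-1-treated wild type against 24.1 FPKM in the mutant (adjusted p = 0.0372, and 0.0811 when adjusted over protein-coding genes only, from the authors' deposited table). Tcfap2b, an AP-2 factor of the early crest, stood at 26.4 and 40.0 FPKM (adjusted p = 0.00499, from the authors' deposited table). The list's median in the mutant was -0.06, and 0.04 for genes of at least 5 FPKM.

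Of the most abundant melanocyte regulators, Sox10 rose with ET-1, and the other 3 did not pass either test. Ednrb, the receptor that melanoblasts need, stood at 62.7, 74.7 and 76.6 FPKM in the PBS, ET-1 and mutant groups, and Pax3, which acts with SOX10 on the Mitf promoter, at 34.8, 37.0 and 45.0 FPKM. Tcfap2a stood at 37.5, 45.9 and 48.1 FPKM. Each of these stood well above Mitf in every group on the FPKM scale, which is per kilobase.

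**Figure D2:**
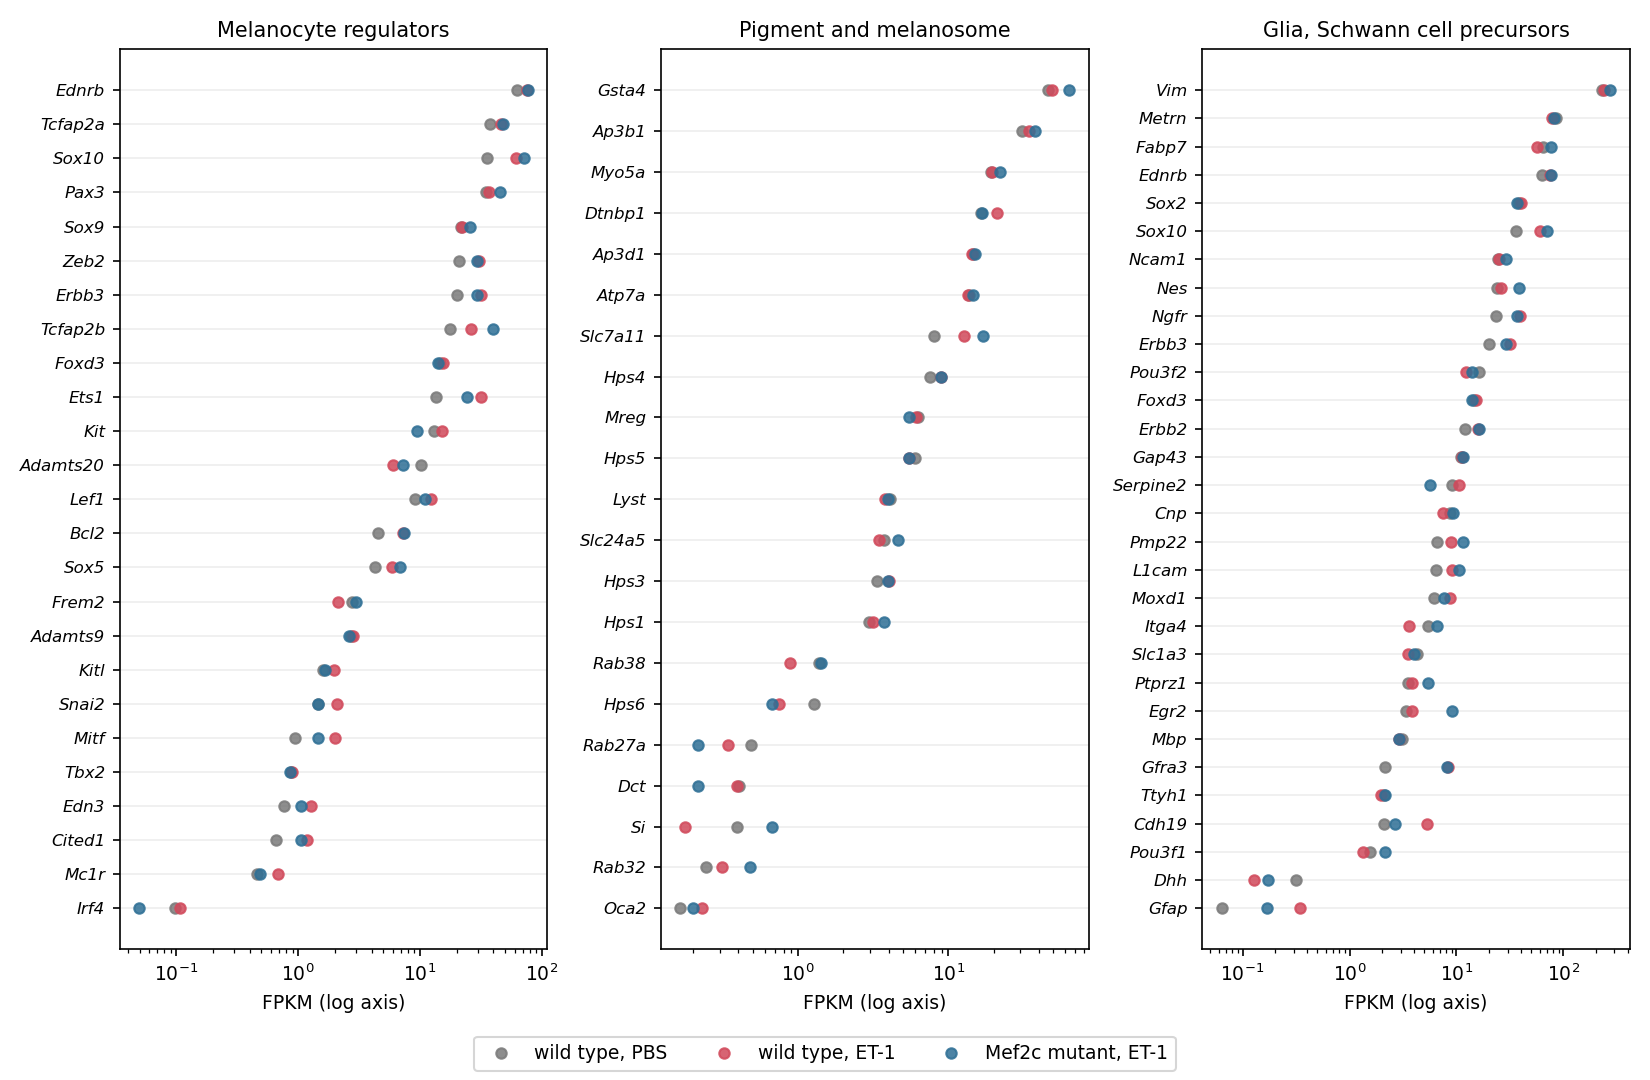
FPKM on a log axis (horizontal) of each gene with FPKM values in all groups, for 25 melanocyte regulators, 21 pigment and melanosome genes and 30 of the 32 glial genes (vertical), coloured by group. Points of a gene mostly overlap across groups, while Ets1, Sox10 and Gfra3 lie to the left with PBS and Kit and Serpine2 lie to the left in the mutant.

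Fabp7, the brain-type fatty acid binding protein, was the most abundant member in every group. The gene (ENSMUSG00000019874) lies on chromosome 10 at 57504729 to 57508256 in mm9. Fabp7 stood at 64.0, 56.3 and 76.1 FPKM in the PBS, ET-1 and mutant groups. These levels were above those of 93.3%, 92.5% and 95.1% of 15624 genes. The ET-1 wild-type value was the lowest and the mutant value the highest. The ratio of mutant to wild type was 1.35 (interval 1.25 to 1.46; unadjusted p = 0.0497 in the authors' deposited table, adjusted p = 0.431) and did not pass. The ratio of ET-1 to PBS was 0.880 (interval 0.803 to 0.964; adjusted p = 1 from the authors' deposited table). The counting intervals excluded equal levels in both comparisons while the adjusted p-values did not pass. The mutant value was 1.19 times the PBS value (interval 1.11 to 1.28).

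Fabp7 is also a radial glia gene, and neural tube and neuron markers were present in the sorted cells. Of 16 neural tube markers, 9 had FPKM values, with a sum of 143, 129 and 152 FPKM in the PBS, ET-1 and mutant groups. Sox2, part of this sum, is also in the glial list below. Neurog2 is counted both here and in the sensory neuron sum. Nkx2-2, Foxa2 and Shh, which mark the ventral neural tube, were listed at 0 in every group. Olig2 and Nkx6-1, also ventral markers of this list, were listed at 0, 4 and 5 and at 3, 1 and 0. These whole numbers look like reads and were not used as FPKM. The dorsal gene Olig3 stood at 28.0, 23.9 and 43.2 FPKM and was higher in the mutant (adjusted p = 0.000203 from the authors' deposited table). Olig3 was the 1 neural tube marker called of 8 tested. Sox2, a neural progenitor factor, stood at 38.7, 40.3 and 37.0 FPKM and Msx3, a dorsal neural tube gene, at 29.8, 24.3 and 28.7 FPKM, and neither passed. All 18 sensory neuron markers had FPKM values, with a sum of 229, 171 and 213 FPKM. Of 17 tested, 1 fell with ET-1 and 3 were higher in the mutant. Dcx, a microtubule protein of migrating neurons, fell with ET-1 from 8.17 to 4.69 FPKM and was higher in the mutant at 8.77 FPKM (adjusted p = 0.000629 and 2.05e-05 from the authors' deposited table). Prdm12, a factor of pain-sensing neurons, stood at 5.90, 6.40 and 18.6 FPKM, and Neurod4, a proneural factor, at 13.6, 9.15 and 15.8 FPKM. Both were higher in the mutant (adjusted p = 1.84e-08 and 0.00828 from the authors' deposited table). The part of any neural tube or neuronal cells in the Fabp7 values was not tested.

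Other members of the lipid and retinoid binding family showed a mixed picture with 0 calls. Of 13 listed genes, 6 had FPKM values and 5 were listed at 0 in every group. Crabp1 and Crabp2, the cellular retinoic acid binding proteins, were the most abundant at 392, 311 and 303 FPKM and at 208, 182 and 231 FPKM. Fabp5, the epidermal form, stood at 18.4, 15.2 and 15.6 FPKM and Fabp3, the heart form, at 4.28, 7.70 and 4.96 FPKM. With adjusted p-values of the deposited table, none of the 6, which include Fabp7, passed in either comparison. In each, 1 had an unadjusted p under 0.05, Crabp1 with ET-1 and Fabp7 itself in the mutant.

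Of 34 glial and Schwann cell precursor genes, 32 had FPKM values and 30 were tested. With ET-1, 4 rose (Gfra3, Sox10, Ngfr and Erbb3) and 0 fell, beside 0.39% and 0.143% of all genes, and the median log2 ratio was 0.08. In the mutant 3 were higher and 2 lower, beside 1.18% and 3.75% of all genes, with a median of 0.11. As for the other lists, the genes were chosen with results known. Cdh19, a cadherin of Schwann cell precursors, stood at 2.12, 5.29 and 2.67 FPKM in the PBS, ET-1 and mutant groups. Its mutant level was 0.504 of wild type (interval 0.433 to 0.586; adjusted p = 0.0184), and its ET-1 ratio of 2.50 (interval 2.04 to 3.07) had an adjusted p = 0.0589, both from the authors' deposited table. Serpine2, a secreted protease inhibitor of glia, was lower in the mutant, at 10.5 against 5.68 FPKM (adjusted p = 0.000491, from the authors' deposited table). Itga4, an integrin subunit of migrating crest, was higher in the mutant at 6.55 against 3.63 FPKM, and Nes, the progenitor intermediate filament nestin, at 38.2 against 26.1 FPKM (adjusted p = 0.000336 and 0.0183, from the authors' deposited table). Egr2, the hindbrain and myelination factor Krox20, was also higher, at 9.04 against 3.82 FPKM (adjusted p = 0.000113 from the authors' deposited table).

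The most abundant genes of the glial list were Vim (227 FPKM with PBS), Metrn (85.9 FPKM), Fabp7 and Ednrb.

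**Figure D3:**
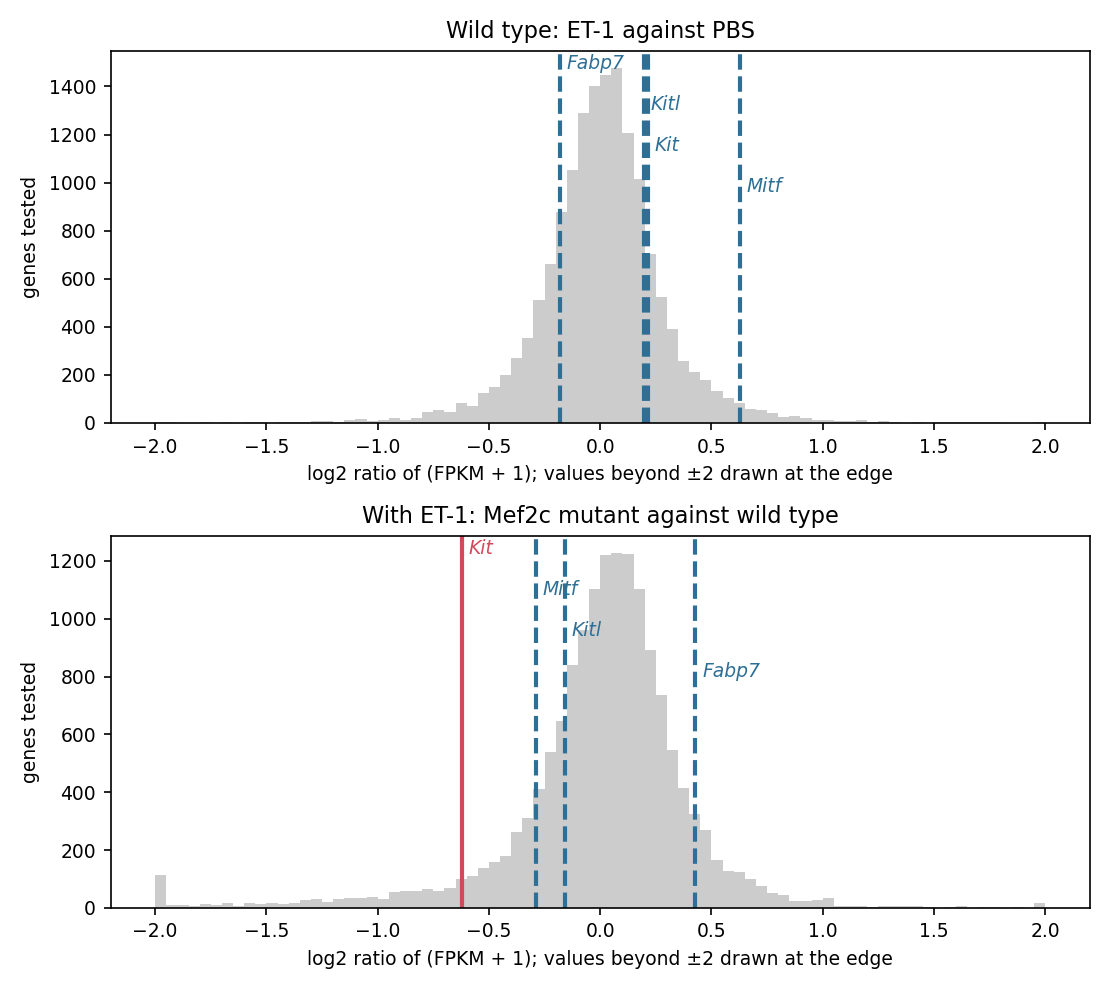
Number of genes tested (vertical axis) by log2 ratio of FPKM + 1 (horizontal axis, values beyond ±2 at the edge) for ET-1 against PBS (top) and mutant against wild type (bottom), with the 4 tested members as lines. The solid line is Kit in the mutant at -0.62, the only call; dashed lines are members that did not pass, with Mitf at 0.63 (top) and Fabp7 at 0.43 (bottom) farthest out.

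The order of the members by level was nearly the same in each group. Fabp7 was highest, followed by Kit, at a ratio of 4.95, 3.71 and 8.01 in the 3 groups. With PBS, Kitl came next, at 1.70 times the level of Mitf, and Dct was the lowest of those with FPKM values. With ET-1 the levels of Mitf and Kitl were 1.01 apart as a ratio, and their counting intervals overlapped, as they did in the mutant, where Kitl was at 1.15 times the level of Mitf. The counting intervals of all other neighbours in the order did not overlap. The wild-type group with ET-1 was used in both comparisons, so the members' values in them are not independent of each other.

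The 3 protein-coding genes closest to Kit in pattern, out of 11174 of at least 1 FPKM in each group, were Rsph9, Lyplal1 and 2310047M10Rik. Likeness was the distance between the pairs of log2 ratios, which was 0.0354, 0.0513 and 0.0544 for these genes over the 3 groups. Rsph9, a radial spoke protein of motile cilia, stood at 2.55, 3.12 and 1.74 FPKM, and Lyplal1, a lysophospholipase-like gene, at 11.3, 12.9 and 7.82 FPKM. The gene 2310047M10Rik stood at 4.67, 5.35 and 3.15 FPKM. None of the 3 passed the test in the mutant (adjusted p = 0.548, 0.112 and 0.473 from the authors' deposited table), although their ratios were close to that of Kit.

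**Figure D4:**
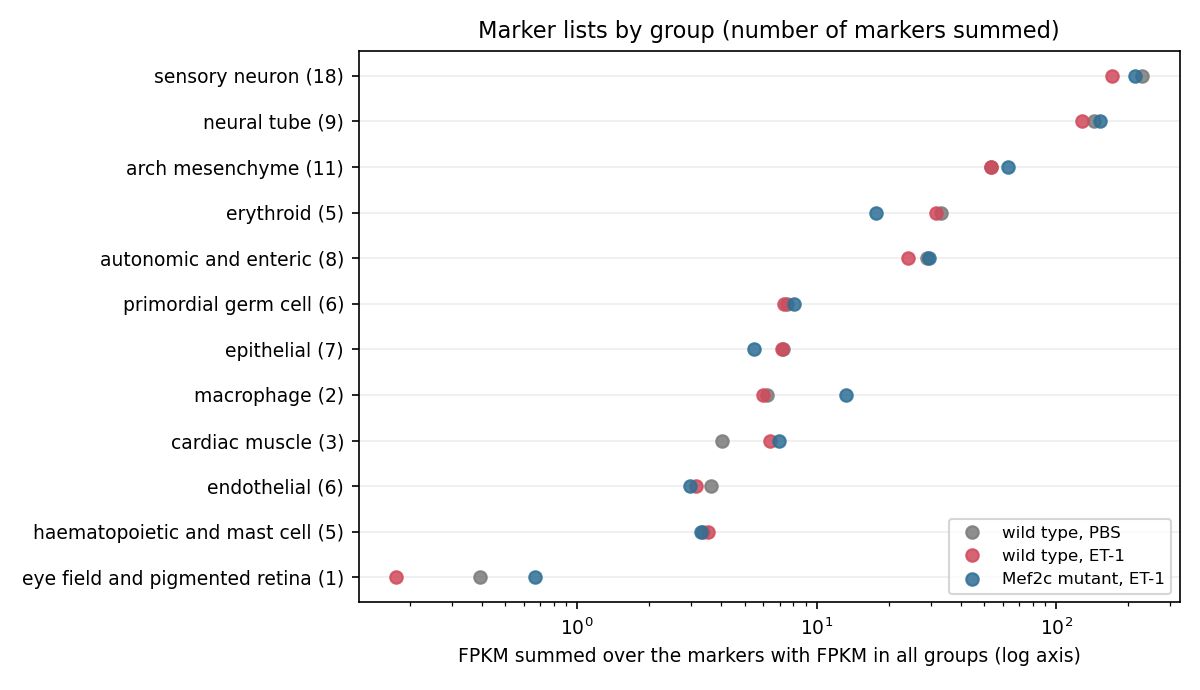
FPKM summed over the markers of each cell type with values in all groups (horizontal log axis; number of markers in brackets), by group. Haematopoietic sums span 3.29 to 3.51 FPKM and germ cell sums 7.33 to 8.08 FPKM, sums in which single markers differ in direction. The erythroid sum is lowest in the mutant at 17.6 FPKM and the macrophage sum, mostly Cd68, is highest there at 13.2 FPKM. The macrophage markers left out of the sum are all listed at 0 in the mutant.

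Marker sums of further cell types differed between groups in part and were not tested. The erythroid sum was 33.0, 31.5 and 17.6 FPKM in the PBS, ET-1 and mutant groups, over 5 of 9 markers. The macrophage sum was 6.22, 5.96 and 13.2 FPKM over 2 of 8 markers, Cd68 and Csf1r. The markers left out of this sum were all listed at 0 in the mutant. Of these, C1qa and Emr1 (current symbol Adgre1) were at 0 in every group. Aif1 stood at 0.712 and 0.952 FPKM in wild type with PBS and with ET-1. In the same 2 groups Mrc1 was listed at 1 and 6, C1qb at 7 and 0 and Cx3cr1 at 0 and 5, whole numbers that look like reads. Cd68 was called higher in the mutant, and this call was lost when p-values were adjusted over protein-coding genes only (adjusted p = 0.0227 and 0.0534 from the authors' deposited table). Endothelial sums were 3.62, 3.14 and 2.95 FPKM over 6 of 9 markers, epithelial sums 7.27, 7.16 and 5.48 FPKM over 7 of 10, and cardiac muscle sums 4.03, 6.39 and 7.00 FPKM over 3 of 8. Arch mesenchyme sums were 53.7, 53.3 and 62.9 FPKM over 11 of 15 markers, and autonomic and enteric sums 28.8, 24.1 and 29.6 FPKM over 8 of 10. Their part in the values of Kit and Fabp7 was not tested.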

How the data were processed

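RNA of 9 samples was amplified and made into libraries with NuGEN kits, per the labels' protocols. Per the submitters' processing notes, TopHat 1.3.1, Cufflinks 1.3.0, Cuffdiff and the mm9 build were used; roles and settings are not listed. The authors deposited FPKM per group, p-values for both comparisons and, for genes they called induced, a normalized fold; how replicates were combined is not stated. The p-values were taken as unadjusted.

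Of 33495 genes, 15639 had whole numbers in both wild-type groups and p of exactly 1. These look like read numbers, and were not used as FPKM. The planned fit per sample could not be made on group values. The deposited p-values were adjusted by Benjamini-Hochberg over genes with at least 1 FPKM in either group and called under 0.05. Ratios are of FPKM. Log2 ratios use a pseudocount of 1, which understates low genes. Starts were counted from 0 in the file and were raised by 1.

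Group totals were fitted to 1296 genes with 1 exon, of which 92.5% to 92.7% came out as whole reads within 0.02. Fold intervals are exact Clopper-Pearson 95% intervals. They and the level intervals (exact Poisson) cover counting error only. The steps were tested on simulated data. The genes described in full were the 6 members. From 19 lists, which matched 282 of 283 entries by identifier or symbol, the rule named the called genes and up to 4 most abundant ones, plus the 3 genes nearest in pattern to a called member. Other list genes named, such as defining markers and family relatives, were chosen after their values were seen. A few list genes are counted in the lists but not reported here by name. Members and lists were chosen with earlier results of these data known. Promoter windows were from RefSeq (GRCm38.p6), and gene classes and 50-base words from GENCODE M21. Python 3.11.15, pandas 2.3.3, numpy 2.4.6, scipy 1.17.1 and matplotlib 3.10.9 were used.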

Additional observations from a re-analysis of the deposited data

How the results depend on the processing

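The call of Kit in the mutant held under the 3 alternatives that change the genes adjusted over: no filter on FPKM, at least 5 FPKM in either group and protein-coding genes only, with an adjusted p of 0.000409 to 0.00184 from the authors' deposited table. A pseudocount of 0.1 and centring on all genes cannot change a deposited p; they moved the log2 ratio of Kit from -0.62 to at most -0.67. Mitf and Fabp7 passed under none of those that could be run, and Kitl and Mitf could not be tested at 5 FPKM or more. With p-values adjusted over protein-coding genes only, 11 genes fell with ET-1, against 22 over all genes. In the mutant 83 were higher and 122 lower, against 183 and 580. The genes tested in the mutant comparison went from 15459 to 11855, so the calls fell by a larger share than the genes did. Gene class came from a match by identifier to GENCODE M21, which 28692 of the 33495 genes had. Genes without a match were left out of the protein-coding class, whatever they encode, so the drop is not one of gene class alone. Centring turned the log2 ratio of Kitl in the mutant against PBS from 0.04 to -0.023. At 5 FPKM or more, Cdh19 passed with ET-1 (adjusted p = 0.0458 from the authors' deposited table). No sample could be left out, since values were per group. No paired analysis was possible because the columns carry no replicate. Depth limits Dct: at 17 to 22 pooled reads, a ratio from 0.277 to 1.10 in the mutant could not be narrowed.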
